A study of Mus musculus with 3 samples.

Results

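The genes described here are those of the class I molecules of the major histocompatibility complex (MHC): the 7 heavy chain genes H2-K1, H2-D1, H2-Q4, H2-Q6, H2-Q7, H2-T22 and H2-T23, and B2m, the gene of the light chain beta-2 microglobulin. They were chosen by symbol, and all 8 were found among the 32285 genes of the matrices. The samples were retinas of C57BL/6JRj mice aged 3 months for the young, 12 months for the adult and 23 months for the old sample, with no other treatment. They were dissociated and enriched on magnetic beads for CD31, which endothelial cells carry on their surface. The retinas of 2 mice were pooled at each age into 1 library of droplet single-cell RNA sequencing, which counts each captured transcript once through a unique molecular identifier (UMI). With 1 library per age, no test between ages was possible, and age and preparation cannot be told apart. Intervals are 95% intervals for counting error alone, exact Poisson for levels, exact conditional for ratios and Clopper-Pearson for shares.

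An MHC class I molecule is a heavy chain bound to beta-2 microglobulin and a peptide cut from proteins inside the cell. It folds and is loaded in the endoplasmic reticulum and is then shown at the cell surface. The classical heavy chains, H2-K1 and H2-D1, present peptides to CD8 T cells. The non-classical chains are less variable and have narrower partners. H2-T23 encodes Qa-1, which binds an inhibitory receptor of natural killer cells and T cells, H2-T22 is recognised by some gamma delta T cells, and the H2-Q6 and H2-Q7 genes encode forms of the Qa-2 antigen. Class I genes are induced by interferons, and neurons are known for low surface levels of class I.

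The heavy chain genes lie together on chromosome 17 of GRCm38, from H2-K1 at chr17:33996017-34000347 and H2-D1 at chr17:35262730-35267499 through H2-Q4 at chr17:35379617-35385290, H2-Q6 at chr17:35424850-35430055 and H2-Q7 at chr17:35439155-35443773 to H2-T23 at chr17:36029773-36032855 and H2-T22 at chr17:36037128-36042747. B2m lies apart, at chr2:122147686-122153083. H2-K1, H2-T22 and H2-T23 are on the minus strand and the others on the plus strand (GENCODE M21). RefSeq promoter windows (GRCm38.p6, 250 bases before to 50 after a start) were found for all 8 genes. A stretch of 100 bases from each is printed because the genes are described as a group, and their proximal letters show what this group shares. Capitals mark matches, on either strand, to the core AANNGAAA of interferon regulatory factor (IRF) sites, to the NF-κB consensus, where matches on both strands overlap, and to TGACG, a short core of cyclic AMP response elements. Each stretch was cut to begin shortly before its first IRF or NF-κB match, so the first matches line up by that choice. In the windows, the IRF and NF-κB matches began 81 to 213 bases before the start.

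H2-K1: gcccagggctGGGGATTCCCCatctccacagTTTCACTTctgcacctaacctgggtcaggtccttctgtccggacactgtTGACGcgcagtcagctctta

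H2-D1: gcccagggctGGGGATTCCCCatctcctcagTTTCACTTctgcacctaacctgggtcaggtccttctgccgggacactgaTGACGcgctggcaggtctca

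H2-Q4: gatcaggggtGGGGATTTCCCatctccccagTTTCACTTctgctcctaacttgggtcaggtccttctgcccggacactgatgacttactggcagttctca

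H2-Q6: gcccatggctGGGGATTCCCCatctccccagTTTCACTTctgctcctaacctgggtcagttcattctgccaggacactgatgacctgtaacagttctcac

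H2-Q7: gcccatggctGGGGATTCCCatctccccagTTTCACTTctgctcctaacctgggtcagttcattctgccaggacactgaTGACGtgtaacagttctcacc

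H2-T22: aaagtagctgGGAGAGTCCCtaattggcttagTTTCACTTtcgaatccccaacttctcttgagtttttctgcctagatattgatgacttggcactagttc

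H2-T23: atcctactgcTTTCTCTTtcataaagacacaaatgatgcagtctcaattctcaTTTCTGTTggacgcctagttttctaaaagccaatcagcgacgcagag

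B2m: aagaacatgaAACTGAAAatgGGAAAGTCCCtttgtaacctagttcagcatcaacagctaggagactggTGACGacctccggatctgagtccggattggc

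In order, the stretches are chr17:34000369-34000468, chr17:35262913-35263012, chr17:35379433-35379532, chr17:35424667-35424766, chr17:35439012-35439111, chr17:36042866-36042965, chr17:36032736-36032835 and chr2:122147540-122147639, each read on its gene's strand. The IRF core was found in all 8 windows and in 23.9% of 32851 promoter windows of all genes. The NF-κB consensus was found in 7 of the 8, all but H2-T23, against 8.46% of all windows. It began 20 to 22 bases before the IRF core in the 6 heavy chain genes that held it, and 11 bases after it in B2m. Of all windows, 1.47% held both, counted at any distance. TGACG was found in 6 windows, all but H2-Q6 and H2-T23, against 20.8% of all windows. In H2-Q4 and H2-T22 it lay outside the stretch shown. The windows of H2-Q6 and H2-Q7 were 97.7% identical over 260 aligned bases, and those of H2-K1 and H2-D1 88.3% over 239. Among H2-K1, H2-D1, H2-Q4, H2-Q6 and H2-Q7, every pair of windows was 81.5 to 97.7% identical. Matches in such like windows are not independent, so the counts of members do not compare plainly with the shares of all windows. The RefSeq starts of H2-D1 and H2-T23 lie 364 and 154 bases inside the GENCODE genes, so their stretches lie within the gene coordinates given above, and a match or its absence holds for those windows alone. A match in letters is not evidence that a factor binds there.

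The heavy chain genes resemble each other, so it was checked where a read could belong to more than 1 of them. The libraries read the 3′ end of transcripts, and the last 500 bases of the principal transcript of each gene were cut into 410 overlapping windows of 91 bases, taken as the length of a read. For H2-K1, H2-D1 and B2m, no window was found in a transcript of another gene. For H2-Q7, 24 windows (5.85%) also occurred in H2-Q5, which is not among the counted genes, and none in H2-Q6. For H2-Q6, 43 windows (10.5%) were shared, 20 of them with H2-Q4. The highest share was that of H2-T22, with 106 windows (25.9%) shared with H2-T10, also not counted. H2-T23 shared 12.9% and H2-Q4 9.27% with genes outside class I, and for H2-T23 also with a class I pseudogene. Whole transcripts of H2-Q6 and H2-Q7 had 8.77% of H2-Q6 windows in common. Reads from shared stretches cannot be given to a single gene by their sequence. The values of H2-T22, H2-T23, H2-Q6, H2-Q4 and H2-Q7, in falling order of that share, are thus uncertain at least to that extent. As H2-T10 and H2-Q5 are not among the counted genes, their reads may be in the values of H2-T22 and H2-Q7, which was not tested. H2-Q8 and H2-Q9 are not counted either, and only transcripts in GENCODE M21 were searched. Whether reads of H2-Q8 or H2-Q9 are in the values of H2-Q6 and H2-Q7 was not tested. H2-Q6 and H2-Q7 are also given as a sum.

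The libraries held 16577026 to 19977238 UMIs each, and 1697 to 1957 cells per library were kept, 5360 in all, with median UMI counts of 5964 to 6356. Pairs of libraries shared 0, 1 or 3 cell barcodes. Clusters were named from marker genes, with the class I genes kept out of the clustering, and 8 classes had at least 30 cells in each library. All 8 endothelial markers were detected in the endothelial class of each library, at a summed 12407, 12690.3 and 12425 CPM (UMIs per 1000000 UMIs of the class) in the young, adult and old library. The class held 438, 419 and 403 cells in that order, which is used throughout, and is made of a larger cluster and a smaller, arterial-like one. A cluster of 67, 84 and 92 cells met all 8 endothelial markers but was left unnamed and out of the class, because its cells' median UMI count came down to 0.289 of the library's, under a limit of 1/3, with none of the markers among its 10 leading genes. Its old to young ratio was 2.07 (1.63 to 2.65) for H2-K1 and 2.25 (1.74 to 2.92) for B2m. A mixed class of its own holds droplets in which pericyte markers came with endothelial ones. It is made of clusters of 618 and 165 cells, and the smaller was led by the arterial genes Gkn3 and Sema3g, with the smooth muscle marker Myh11 and no pericyte marker among its 10 leading genes, so the class name describes that cluster less well. A UMI stands for 1 transcript whatever its length, so CPM were compared between genes without a length correction.

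The main comparison asked how the class I genes of endothelial cells differed between the ages. All 8 were higher in the old than in the young library, by 1.46 to 14.3 times, and 7 of them by 1.5 times or more, all but H2-T23. Of 8983 genes with at least 50 UMIs over both libraries, 4.86% were at 1.5 or above and 3.09% were as far below, and the median ratio of all genes was 1.02 against 2.16 for the 8. For each of the 8 the step from adult to old, by 1.51 to 4.94 times, was larger than that from young to adult. From young to adult, 2 of the 8 passed 1.5, H2-Q6 and H2-Q7, against 2.74% of all genes.

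H2-K1 counted 1912, 2318 and 5285 UMIs in the young, adult and old endothelial cells, or 593, 693 and 1439 CPM. H2-D1, the other classical chain, counted 2426, 2940 and 5466, or 752, 879 and 1488 CPM. The old library stood apart and the young and adult lay near each other: the old to young ratio was 2.43 (2.302 to 2.56) for H2-K1 and 1.98 (1.88 to 2.08) for H2-D1, while the adult to young ratio was 1.17 (1.10 to 1.24) and 1.17 (1.11 to 1.23). The ratio of H2-K1 exceeded that of H2-D1 by 1.23 (1.14 to 1.32) times. H2-D1 was the more abundant in the young and adult libraries, and in the old the intervals met, 1400.1 to 1478 CPM for H2-K1 and 1449 to 1528 for H2-D1.

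B2m, whose product every heavy chain needs to reach the surface, was the most abundant of the 8, with 2733, 3401 and 6802 UMIs or 848, 1016 and 1852 CPM, an old to young ratio of 2.18 (2.09 to 2.28). Per heavy chain UMI, B2m UMIs were 0.477, 0.494 and 0.463, and the 7 heavy chains summed had a ratio of 2.25 (2.18 to 2.32). The light chain and the sum of the heavy chains thus differed by nearly the same factor. Against B2m, the ratio of H2-K1 was 1.11 (1.04 to 1.19) times as high and that of H2-D1 0.905 (0.848 to 0.967) times.

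The non-classical chains did not form a uniform group. H2-Q7 was at 26.1, 57.1 and 282 CPM (84, 191 and 1036 UMIs), and H2-Q6 at 8.37, 24.8 and 119.8 CPM (27, 83 and 440 UMIs). These Qa-2 genes were the 2 lowest in young cells and differed most with age, with old to young ratios of 10.8 (8.66 to 13.7) and 14.3 (9.70 to 21.95). Theirs were also the adult to young ratios furthest from 1, 2.19 (1.69 to 2.87) and 2.96 (1.90 to 4.76). Summed, H2-Q6 and H2-Q7 had an old to young ratio of 11.7 (9.62 to 14.3), and the ratio of H2-Q6 to that of H2-Q7 was 1.32 (0.834 to 2.15), which includes 1.

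H2-Q4 was at 99.9, 104 and 213 CPM, near its young level in the adult and 2.13 (1.87 to 2.44) times the young level in the old. H2-T22, the ligand of gamma delta T cells, was at 52.4, 62.8 and 99.1 CPM, a ratio of 1.89 (1.57 to 2.28). H2-T23, which encodes Qa-1, was the most abundant non-classical chain at 246, 238 and 361 CPM and had the smallest ratio of the 8, 1.46 (1.34 to 1.60). It lies next to the limit of 1.5, on either side of which it fell with other processing (1.42 to 1.56). Against B2m, the ratios of H2-Q6 and H2-Q7 were 6.55 (4.42 to 10.07) and 4.96 (3.95 to 6.29) times as high, and that of H2-T23 was 0.670 (0.607 to 0.741) times. For H2-Q4 and H2-T22 the interval against B2m included 1. H2-T23 is also the gene whose promoter window, set on the RefSeq start, held no NF-κB consensus, and the Qa-2 genes have the pair of nearly identical windows printed above. Whether these letters bear on the levels was not tested. In the young library the order of levels was B2m, H2-D1, H2-K1, H2-T23, H2-Q4, H2-T22, H2-Q7 and H2-Q6. In the old library H2-Q7 stood above H2-Q4 and H2-Q6 above H2-T22, though the intervals of the latter pair met, 109 to 132 and 89.2 to 109.8 CPM. The plot of endothelial levels by age shows the 8 genes side by side.

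**Figure D1:**
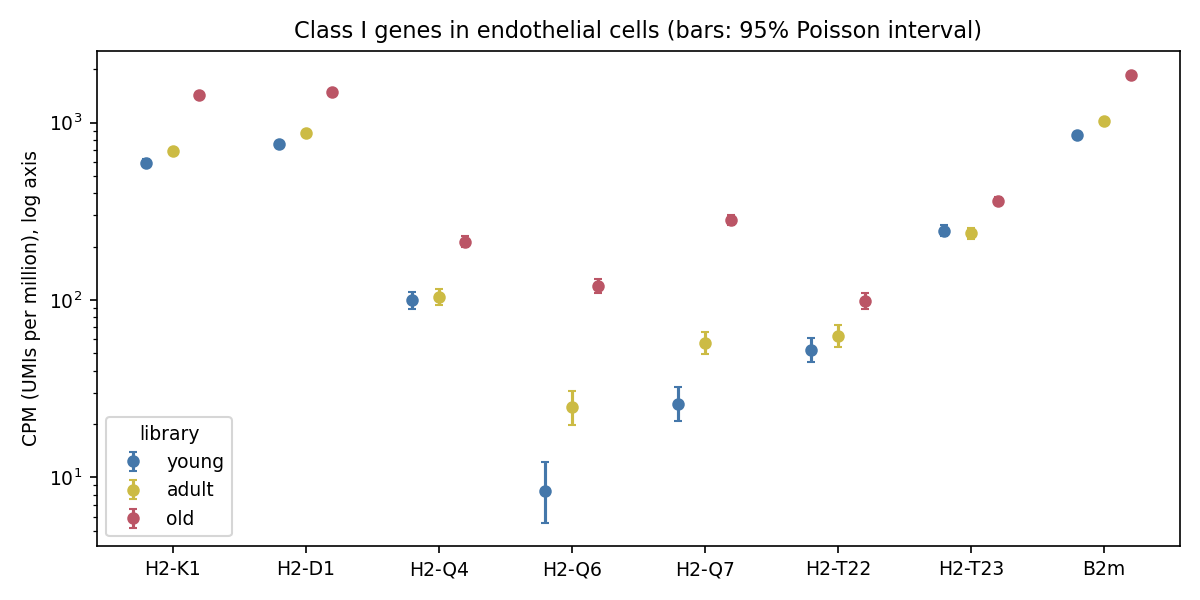
CPM of the 8 class I genes in endothelial cells (vertical log axis) in the young, adult and old library, 1 point per library, with 95% Poisson intervals for counting error. The old point is the highest for all 8 genes, and the distance from young to old is widest for H2-Q6, at 8.37 and 119.8 CPM, and H2-Q7, at 26.1 and 282 CPM.

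Set against each other, the 5 non-classical chains summed had an old to young ratio of 2.48 (2.33 to 2.64) and the 2 classical chains one of 2.18 (2.10 to 2.25), a quotient of 1.14 (1.06 to 1.23). That order rests on H2-Q6 and H2-Q7: for H2-Q4, H2-T22 and H2-T23 alone the quotient was 0.776 (0.719 to 0.838), below 1. Of the heavy chain UMIs, H2-Q7 made up 1.46, 2.77 and 7.05% at the 3 ages and H2-Q6 0.471, 1.21 and 2.99%, and H2-T23, with a lower share in the old than in the young, 13.8, 11.6 and 9.01%. H2-D1 made up 42.3, 42.7 and 37.2% and H2-K1 33.3, 33.7 and 36.0%.

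Single endothelial cells were compared after each was thinned to 2000 UMIs, with 428, 399 and 400 cells left. H2-K1 averaged 1.16, 1.42 and 2.82 UMIs per thinned cell, and the share of cells with none was 40.9, 28.8 and 13%. B2m averaged 1.55, 2.12 and 3.57, with none in 24.5, 16.5 and 6.50% of cells. Cells with no H2-K1 UMI were fewer in the old library, and the 10% of cells with most held 37.8, 31.0 and 26.6% of the H2-K1 UMIs, less in the old than in the young. At such low counts both shares depend on the mean, so a difference in spread between cells cannot be read from them.

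H2-Q7 was seen in 10.5, 23.2 and 72.2% of endothelial cells at full depth and in 4.44, 9.77 and 34.8% of thinned cells, and H2-Q6 in 4.11, 12.2 and 47.6% and 1.64, 4.01 and 16.5%. In rods, which have little class I, H2-Q7 was seen in 0.599, 0.311 and 0.422% of cells, which is taken as background. The median UMI count per cell was 2283, 2426 and 2161 in rods and 5648, 6087 and 7615 in endothelial cells. Over thinned endothelial cells, Spearman's rho of H2-K1 with H2-D1 was 0.24, 0.27 and 0.34 within the young, adult and old library, and with B2m 0.20, 0.20 and 0.30. These are descriptions in sparse counts from cells that share a library, and they are weak.

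**Figure D2:**
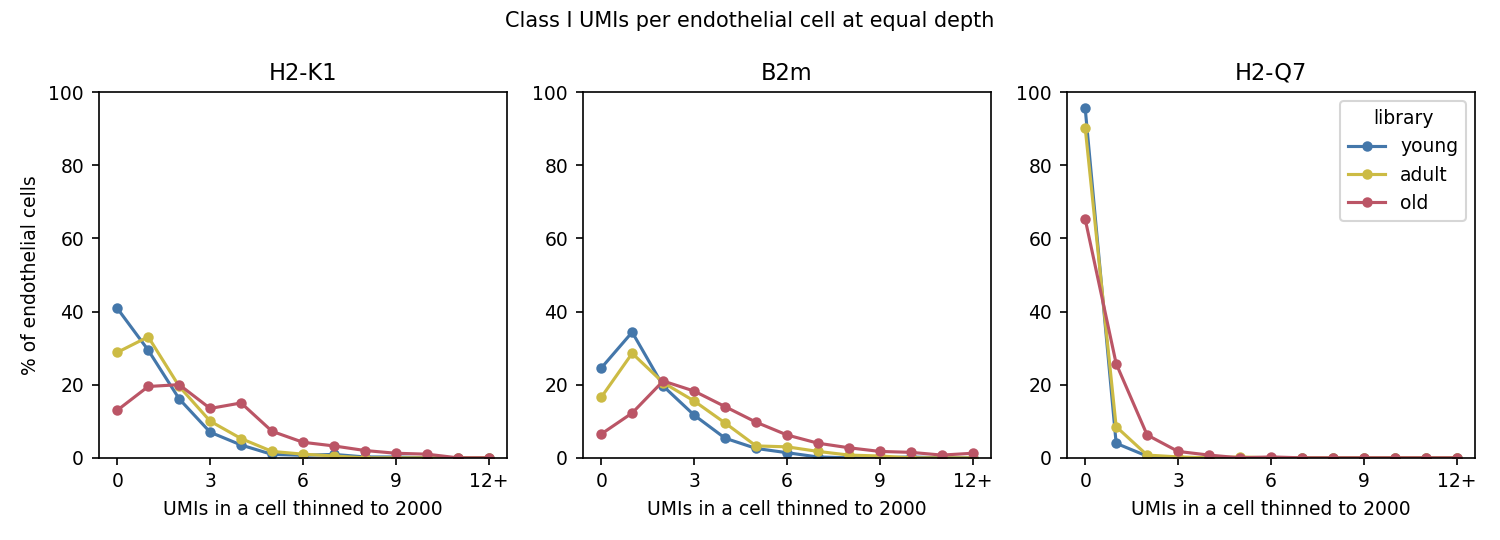
Share of endothelial cells (vertical axis, %) by their number of H2-K1, B2m or H2-Q7 UMIs after thinning to 2000 UMIs per cell (horizontal axis, with 12 or more in the last point), 1 line per library. Cells without a UMI went from 40.9 to 13% for H2-K1 and from 95.6 to 65.2% for H2-Q7 between young and old.

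The 2 endothelial clusters were then described apart. The smaller one, with 69, 74 and 95 cells, was led by Gkn3 and Sema3g, and its 8 arterial markers summed to 4647, 5767 and 5722 CPM against 704, 821 and 1032 CPM in the larger one. The classical chains and B2m were higher in the arterial-like cluster at each age. H2-K1 was at 875, 1000.5 and 1664 CPM there and at 527, 618 and 1359 CPM in the larger cluster. The Qa-2 genes differed far more: H2-Q7 was at 88.1, 155 and 363 CPM in the arterial-like cluster and at 11.5, 33.1 and 254 CPM in the larger one, where it rested on 30, 89 and 689 UMIs. H2-Q6 was at 32.6, 64.0 and 171 CPM in the arterial-like cluster and 2.68, 15.2 and 102 CPM in the larger one, from 7, 41 and 277 UMIs. In the young library these genes were thus counted mainly in the arterial-like cells, and in the old in both clusters.

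The old to young ratio of H2-Q7 was 22.1 (15.3 to 33.0) in the larger cluster and 4.12 (3.08 to 5.59) in the arterial-like one, a quotient of 5.36 (3.30 to 8.83), and for H2-Q6 the quotient was 7.28 (2.87 to 20.8). For H2-K1 it was 1.36 (1.21 to 1.52). For H2-D1, H2-Q4, H2-T22, H2-T23 and B2m the interval of the quotient included 1, that of B2m being 1.05 (0.944 to 1.16). The members were kept out of the clustering, but the arterial-like cluster made up a larger part of the class in the old library. Ratios within a cluster are free of that shift between clusters, but not of a shift in makeup within a cluster. The arterial markers of the larger cluster, given above, also summed to more in the old library than in the young. Whether this bears on its ratios was not tested.

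**Figure D3:**
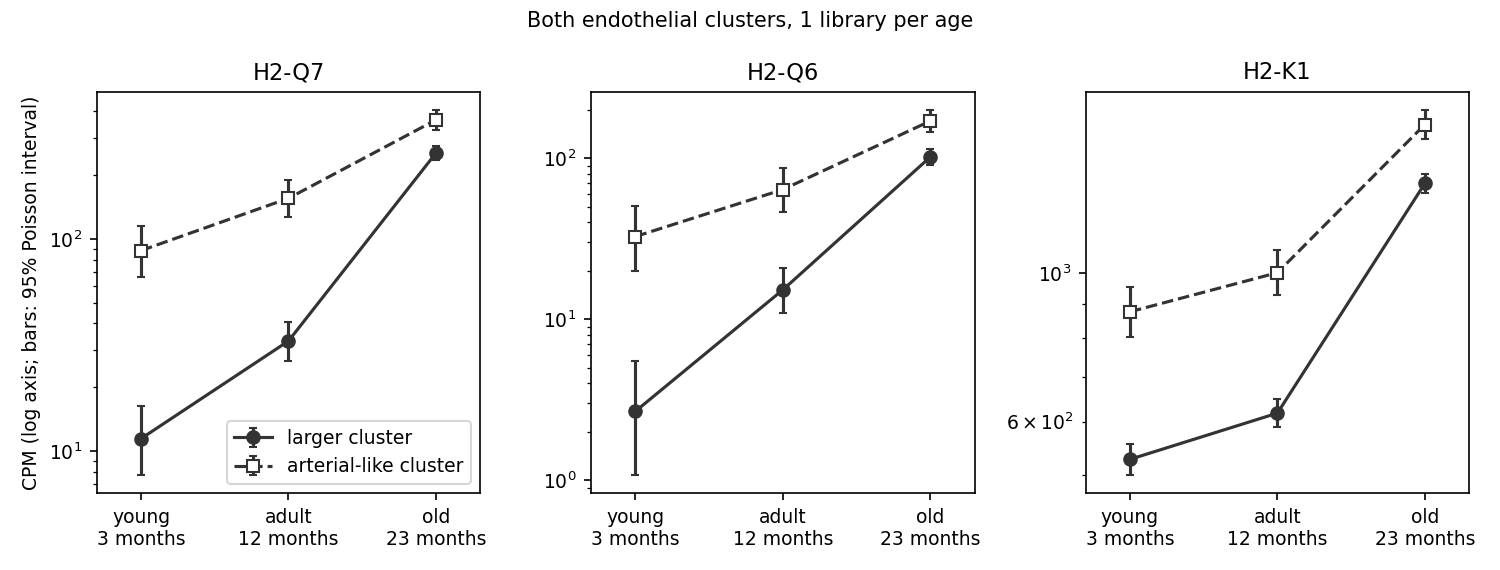
CPM (vertical log axis, separate for each gene) of H2-Q7, H2-Q6 and H2-K1 in the larger and the arterial-like endothelial cluster of each library, with 95% Poisson intervals. The clusters lie far apart in the young library for H2-Q7, at 11.5 and 88.1 CPM, and closer in the old, at 254 and 363 CPM.

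Other cells that carry class I were looked for inside the endothelial class. Of 4 T or natural killer cell markers, 4 were at 0 in the young and the adult library and 3 in the old, and the 6 markers of microglia or macrophages summed to 6, 8 and 4 UMIs. The 6 B cell markers summed to 14, 71 and 23 UMIs, most in the adult. Haemoglobin and other erythroid markers did differ, at 559.8, 200.2 and 1372 CPM, and pericyte markers were at 1866, 1963 and 1278 CPM. With endothelial cells that held 2 or more markers of another class left out (213, 156 and 128 cells left), the ratio was 2.46 for H2-K1, 2.12 for B2m and 10.0 for H2-Q7.

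Across the other classes, the question was whether the difference was particular to endothelial cells. The mixed endothelial-pericyte droplets had lower levels than endothelial cells, except for H2-Q6 and H2-T22 in the young library. There H2-Q6 was at 9.82 against 8.37 CPM in endothelial cells and H2-T22 at 54.2 against 52.4, with intervals that met. In these droplets 7 of 8 genes were at 1.5 or above, all but H2-T23, against 3.64% of all genes. H2-D1 was at 614, 683 and 1158 CPM, H2-Q4 at 76.8, 83.8 and 150 and H2-T23 at 186, 162 and 265. H2-Q6 was at 9.82, 18.9 and 73.4 CPM and H2-T22 at 54.2, 47.9 and 86.5. H2-K1 was at 489.7, 541 and 955 CPM, H2-Q7 at 20.8, 44.5 and 168 and B2m at 681, 789 and 1348. Their ratios were 1.95 (1.85 to 2.06), 8.08 (6.48 to 10.17) and 1.98 (1.89 to 2.07). The endothelial ratio was 1.24 (1.15 to 1.34) times as high as theirs for H2-K1, 1.10 (1.03 to 1.18) times for B2m and 1.14 (1.09 to 1.20) times for all heavy chains. These droplets hold endothelial RNA by the way they were named. Summed over the 7 heavy chains, the old library had 4001 CPM in endothelial cells, 2856 in the mixed droplets, 854 in pericytes, 496 in smooth muscle cells, 414 in Müller glia, 149 in cones, 142 in rods and 133 in bipolar cells. The intervals of smooth muscle cells and Müller glia met, and so did those of the 3 kinds of neuron.

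In pericytes, the mural cells of capillaries, H2-K1 was at 134, 186 and 308 CPM, H2-D1 at 257, 279 and 374 and B2m at 237, 267 and 354, well under the endothelial levels. Of the 4 genes with at least 50 UMIs, 1 was at 1.5 or above, H2-K1 at 2.304 (1.77 to 3.01), against 7.67% of all genes. H2-D1 and B2m were just below, at 1.45 (1.18 to 1.79) and 1.49 (1.20 to 1.86). Endothelial RNA was also present: the endothelial markers reached a median 5.19, 6.28 and 7.84% of their endothelial level, more in the old. With that share of endothelial RNA subtracted, the ratio was 1.90 for H2-K1, 1.18 for H2-D1 and 1.08 for B2m. Pericytes had 2, 0 and 7 UMIs of H2-Q7 and 0, 0 and 4 of H2-Q6, too few for a ratio. H2-T23 counted 48, 47 and 48 UMIs, H2-T22 24, 15 and 17 and H2-Q4 16, 9 and 10, with old to young ratios of 1.39 (0.913 to 2.12), 0.986 (0.497 to 1.91) and 0.870 (0.353 to 2.04).

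In smooth muscle cells, with 38, 38 and 37 cells, all 3 genes with at least 50 UMIs passed 1.5, against 9.06% of all genes. H2-K1 was at 104, 108 and 195 CPM, H2-D1 at 120.3, 165 and 209 and B2m at 71.5, 136 and 256. The ratios were 1.87 (1.22 to 2.94), 1.74 (1.16 to 2.65) and 3.58 (2.23 to 5.99), so B2m differed more than in endothelial cells, with a quotient of endothelial to smooth muscle of 0.610 (0.364 to 0.982). No UMI of H2-Q6 or H2-Q7 was counted at any age. In the old library, 3 counts, taken as the limit that a count of 0 allows, would be 8.35 CPM, and the upper bound of the Poisson interval was 10.3 CPM. Endothelial markers were at a median 0.186, 0.586 and 1.01% of their endothelial level. H2-T23, which had the smallest ratio in endothelial cells, counted 0, 10 and 15 UMIs here. Set against 3 counts in the young library, the old level was 4.28 times as high, and the interval of the ratio itself began at 3.07. H2-T22 counted 9, 8 and 14 UMIs and H2-Q4 2, 3 and 4.

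Müller glia, the radial support cells of the retina, had a different mix and a smaller difference with age. H2-K1 was at 178, 201 and 219.8 CPM, H2-D1 at 76.8, 75.1 and 81.0 and B2m at 196, 205 and 253. H2-K1 outnumbered H2-D1, with 69.8, 72.8 and 73.1% of their joint UMIs, while in endothelial cells it made up 44.1, 44.1 and 49.2% and in pericytes 34.2, 39.9 and 45.2%. The intervals of Müller glia and of endothelial cells did not meet at any age. With age, 1 of 6 genes passed 1.5, H2-T23 at 1.83 (1.24 to 2.72), against 5.06% of all genes. The ratio was 1.24 (1.05 to 1.45) for H2-K1, 1.06 (0.818 to 1.36) for H2-D1 and 1.29 (1.11 to 1.504) for B2m. H2-Q4 was at 27.2, 25.2 and 36.3 CPM and H2-T22 at 16.9, 11.8 and 21.4, neither past 1.5.

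The old to young ratio of all heavy chains was 1.83 (1.63 to 2.06) times as high in endothelial cells as in Müller glia, and that of B2m 1.69 (1.44 to 1.97) times. Endothelial markers reached a median 0.379, 0.323 and 0.357% of their endothelial level in Müller glia, though Kdr alone was at 152, 134 and 171%. Müller glia counted 12, 18 and 10 UMIs of H2-Q7 and 7, 3 and 0 of H2-Q6, so the Qa-2 genes were not higher in the old library there.

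The neurons had the lowest class I levels. In rods, H2-D1 was the only gene with at least 50 UMIs, at 35.3, 39.1 and 70.0 CPM from 17, 39 and 43 UMIs, a ratio of 1.98 (1.11 to 3.71), against 5.68% of all genes. H2-K1 counted 7, 14 and 29 UMIs and B2m 4, 13 and 20, ratios of 3.25 (1.39 to 8.79) and 3.92 (1.31 to 15.8). With rods that held 2 or more markers of another class left out, the direction of B2m turned, to an old to young ratio of 0.809. Kdr, an endothelial marker that Müller glia also hold, was at 2.47, 0.637 and 10.7% of its endothelial level in rods, highest in the old, while the median endothelial marker was at 0.342, 0.414 and 0.496%. That median share of the endothelial level makes up 13.9, 20.4 and 15.1% of the H2-K1 and 34.9, 32.3 and 28.2% of the B2m counted in rods.

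In bipolar cells, H2-K1 was at 30.04, 44.4 and 49.7 CPM and H2-D1 at 39.5, 40.0 and 63.7 CPM, and both passed 1.5, at 1.65 (1.07 to 2.58) and 1.61 (1.10 to 2.37), against 3.77% of all genes. In cones, H2-K1 was at 42.7, 43.3 and 51.2 CPM and H2-D1 at 54.9, 68.6 and 67.6 CPM, and the 1 gene with enough UMIs, H2-D1, did not pass, at 1.23 (0.718 to 2.13), against 5.71% of all genes. The heavy chain ratio was 1.71 (1.19 to 2.47) times as high in endothelial cells as in cones, 1.34 (1.02 to 1.74) times as in bipolar cells and 1.37 (1.18 to 1.59) times as in pericytes. Against rods, at 1.05 (0.680 to 1.60), and smooth muscle cells, at 1.18 (0.893 to 1.55), the interval included 1, so these data do not show a larger ratio in endothelial cells than there. Each of the 5 non-classical chains counted between 0 and 9 UMIs in any library of rods, cones or bipolar cells, too few to compare.

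**Figure D4:**
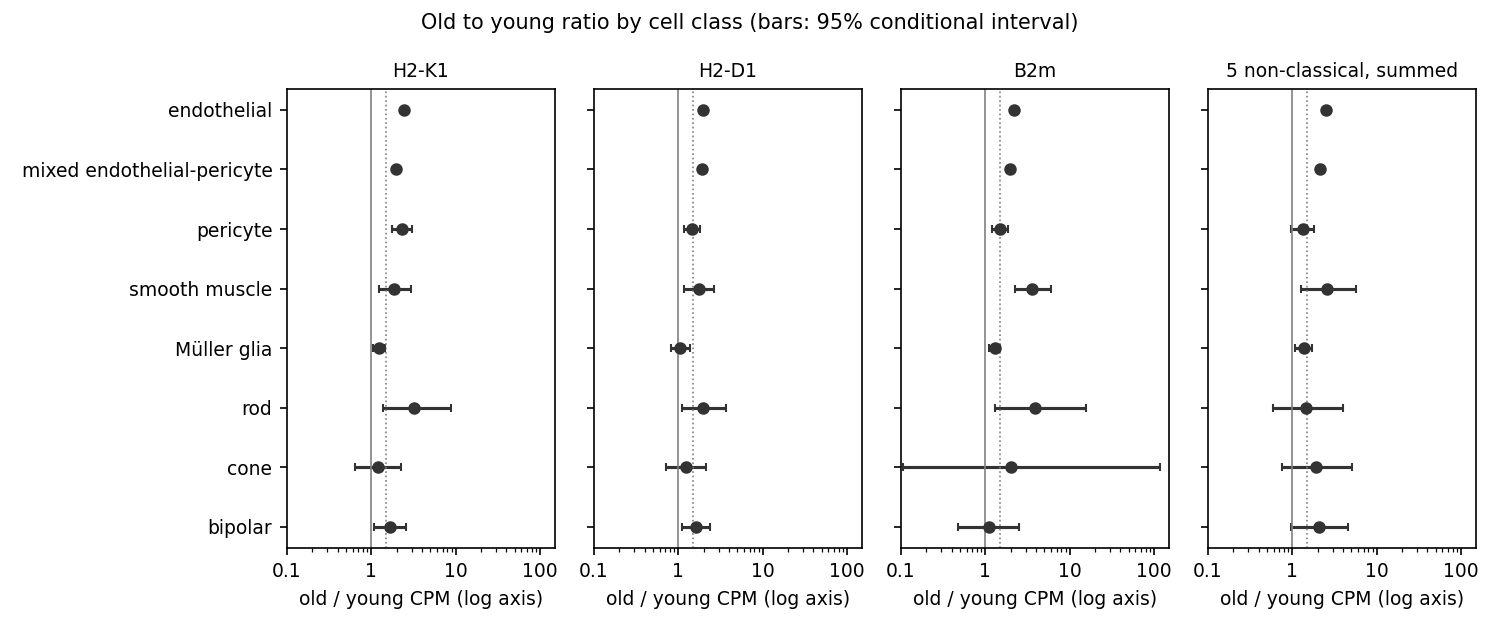
Old to young CPM ratio (horizontal log axis) of H2-K1, H2-D1, B2m and the 5 non-classical chains summed in the 8 cell classes, with 95% conditional intervals. The solid line marks 1 and the dotted line 1.5. Endothelial and mixed droplets have the narrowest intervals, at 2.43 and 1.95 for H2-K1, and Müller glia lie nearest to 1 among the classes with intervals above it, at 1.24.

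Light and heavy chains were not in the same balance in all classes. Per heavy chain UMI, endothelial cells held 0.477, 0.494 and 0.463 B2m UMIs, pericytes 0.456, 0.450 and 0.415 and Müller glia 0.582, 0.562 and 0.613. Smooth muscle cells held 0.275, 0.402 and 0.517, from 22, 43 and 92 B2m UMIs. Their young interval, 0.163 to 0.445, lay below that of endothelial cells, and the adult and old intervals met those of endothelial cells. Cones held 0.0179, 0.0114 and 0.0274, from 1, 1 and 2 B2m UMIs beside 56, 88 and 73 heavy chain UMIs, and bipolar cells 0.140, 0.0692 and 0.0915, from 14, 9 and 13 beside 100, 130 and 142. So cones and bipolar cells had heavy chain transcripts with few of the light chain, and their intervals lay below those of endothelial cells at each age.

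Free endothelial RNA was set beside the B2m of cones and bipolar cells. The median endothelial marker was at 0.608, 0.0761 and 0.215% of its endothelial level in cones and 1.14, 0.786 and 0.612% in bipolar cells, and that share of endothelial B2m is 5.16, 0.773 and 3.98 CPM in cones, where 2.03, 1.49 and 4.10 CPM were counted, and 9.66, 7.99 and 11.3 CPM in bipolar cells, where 11.1, 6.66 and 12.2 were counted. In cones that is 253, 51.8 and 97.1% of the B2m counted, from 1, 1 and 2 UMIs, and in bipolar cells 87.3, 119.8 and 92.9%. Whether the B2m UMIs of these cells came from free RNA was not tested. The same share gives 4.58, 0.668 and 3.20 CPM of H2-D1 in cones, against 54.9, 68.6 and 67.6 counted. Rods held 0.125, 0.220 and 0.230 B2m UMIs per heavy chain UMI, from 4, 13 and 20 B2m UMIs, and their intervals too lay below those of endothelial cells at each age.

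**Figure D5:**
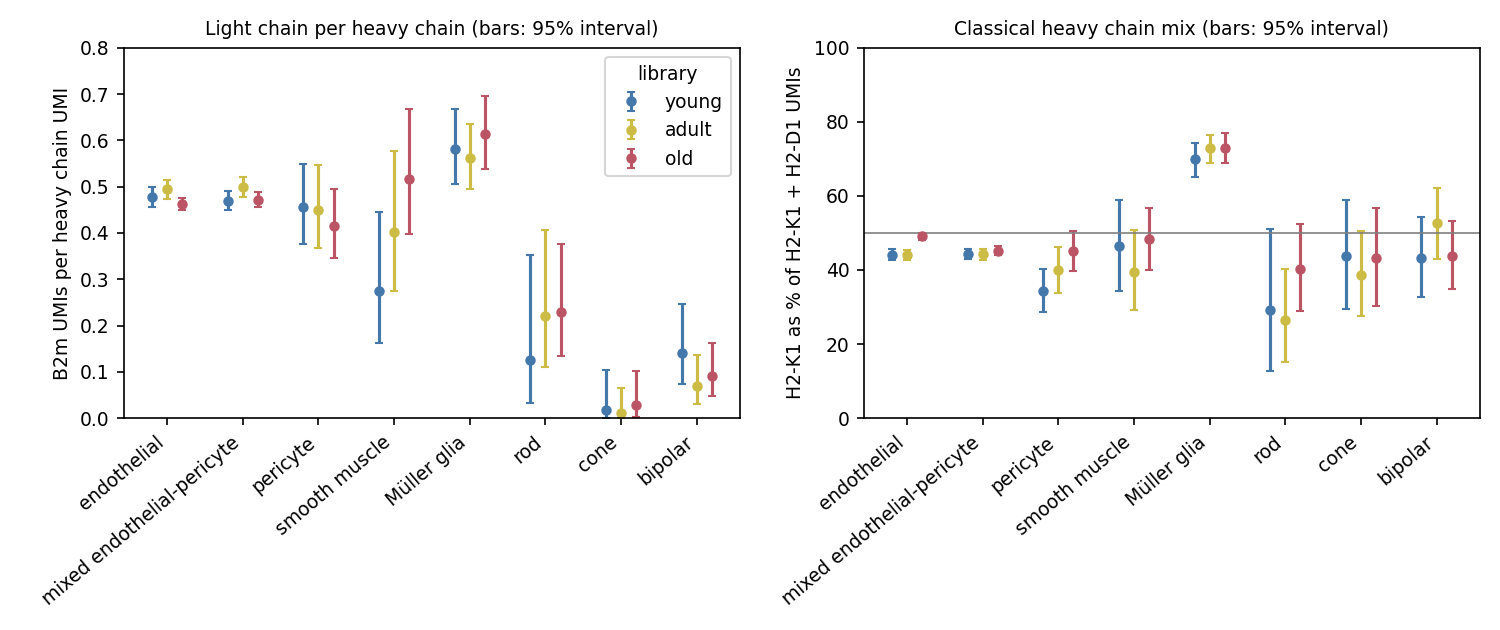
Left, B2m UMIs per heavy chain UMI, and right, H2-K1 as a share of H2-K1 and H2-D1 UMIs (%), in 8 cell classes of the young, adult and old library, with 95% intervals. Cones lie lowest on the left, at 0.0179, 0.0114 and 0.0274, and Müller glia highest on the right, at 69.8, 72.8 and 73.1%.

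The genes that supply class I with peptides were taken from a list of 22, all with at least 50 UMIs in endothelial cells. Of these, 4 were at 1.5 or above in the old against the young library and 0 as far below, beside 4.86 and 3.09% of all genes, with a median ratio of 1.16 against 1.02 for all genes. Among them were Nlrc5, the transactivator of class I genes, at 2.95 (1.59 to 5.79), Tap1, which carries peptides into the endoplasmic reticulum, at 2.44 (1.79 to 3.35), and Psmb8, an immunoproteasome subunit, at 1.55 (1.40 to 1.72). Nlrc5 rested on 14, 10 and 47 UMIs and was not higher in the adult. Tap1 was at 18.0, 30.2 and 43.8 CPM, higher in the adult too.

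By role, 1 of 2 peptide transporter genes, 0 of 5 of the loading complex and 1 of 6 of the proteasome passed. Of the peptide trimming genes 0 of 2 passed, and of the regulators 2 of 7. Smaller differences were more common: the interval for counting error lay above 1 for 12 of the 22 genes and below 1 for 0. It lay above 1 for 2 of 2 transporter genes, 3 of 5 of the loading complex and 5 of 6 of the proteasome. For peptide trimming this held for 0 of 2, and for regulators for 2 of 7. Irf1, another activator of class I, was at 1.00 (0.847 to 1.19). The lowest of the list were Rfxap, a subunit of the RFX complex, at 0.923 (0.746 to 1.14), and Rfx5, of the same complex, at 0.936 (0.551 to 1.59).

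Other class I and class I-like genes gave other ratios. Of 35 listed, 24 are in the matrices and 7 had at least 50 UMIs in young and old endothelial cells, with a median ratio of 1.04, 0 at 1.5 or above and 1 as far below, beside 4.86 and 3.09% of all genes. The latter was Mill2, at 52.4, 46.3 and 32.1 CPM, a ratio of 0.613 (0.480 to 0.780). H2-T24 was at 1.35 (0.960 to 1.93), H2-M3, which presents formylated peptides, at 1.16 (0.908 to 1.49), Procr, the endothelial protein C receptor, at 1.25 (0.872 to 1.81), and Hfe, a regulator of iron uptake, at 1.04 (0.799 to 1.35). Fcgrt, the heavy chain of the neonatal Fc receptor, which also pairs with B2m, was the most abundant, at 309, 280.3 and 265 CPM, a ratio of 0.857 (0.784 to 0.937). Mr1, which presents vitamin metabolites, was at 0.738 (0.503 to 1.08).

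Last, the genes whose levels ran most like those of H2-K1 and B2m were ranked by Pearson's r of log2(CPM + 10) over the 24 sums of 8 classes and 3 libraries, among 11192 genes with at least 200 UMIs. The points share libraries and free RNA, so r is a description. Nearest to B2m were Gbp7 (r 0.990), Bst2 (0.986), Ifi35 (0.983), Parp14 (0.982) and Isg15 (0.980). Nearest to H2-K1 were Gbp2, Dap, Reck, Dtx3l and Rnf213, with r of 0.964 to 0.965. Among the members, H2-Q4 was the nearest to H2-K1 (0.958) and H2-T22 to B2m (0.965). The Qa-2 genes stood furthest from both, with r to H2-K1 of 0.727 for H2-Q6 and 0.795 for H2-Q7. The order depends on the scale at low levels: with log2(CPM + 1), 0 of the 5 genes named beside H2-K1 and 3 of the 5 beside B2m remained among the nearest 5.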

How the data were processed

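Retinal cells of 3 libraries (young, adult and old, 2 pooled mice each) were analysed. The deposited values are raw UMI counts per gene and barcode, which the authors made with Cell Ranger 6.1.2 on mm10, per the labels, with no normalization. Cells with 500 to 6000 genes and 1 to 20% mitochondrial UMIs were kept, as in the study, and doublets were called with Scrublet (scanpy 1.11.5) in place of the study's caller, marking 0.409, 0.861 and 0.934% of cells, a weak call. The files hold 2491, 3243 and 2751 barcodes, of which 1713, 1974 and 1713 passed the limits.

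Libraries were integrated and clustered in Seurat 5.3.0 (R 4.3.3) with 2000 features, 30 components and resolution 0.5, and 810 genes, the class I and pathway genes among them, were kept out of the features. A cluster was named where at least 3 markers of a class met a level limit, unless its cells' median UMI count was under 1/3 of their library's and none of those markers was among its 10 leading genes. This left unnamed, and out of the endothelial class, a low-UMI cluster of 67, 84 and 92 cells in which all 8 endothelial markers met the limit. The limits were set with the clusters known, and the classes were rebuilt here, so they can differ from the study's. Counts were summed per class and library and given as CPM. Ratios compare the CPM of a pair of libraries, and a gene counts as past the limit at a ratio of 1.5 or more with at least 50 UMIs over both. Exact intervals (scipy 1.17.1) cover counting error only, since UMIs of 1 library are not replicates. The scripts were tested on simulated data. Shares of free endothelial RNA were estimated from the median of the endothelial markers. Promoter windows and alignments were read with Biopython 1.88.

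The members and gene lists were chosen with earlier results of these data known. All 8 members are described in endothelial cells, and in the other classes with values or, where UMIs are few, by their range. Named besides are the 4 highest and 2 lowest antigen processing genes by ratio, the regulators Nlrc5 and Irf1, class I relatives with at least 50 endothelial UMIs, and the 5 genes nearest to H2-K1 and to B2m. A gene that this rule also names is not reported here. Alternatives covered the cell limits, doublets, depth, denominator, minimum, fold, cell makeup and free RNA.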

Additional observations from a re-analysis of the deposited data

Results flagged for a closer look

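In classes with fewer than 30 cells in some library, class I was still counted. In the old library, B cells (57 cells) had 4430.4 CPM of heavy chains and 1486 CPM of B2m, and a cluster of T cells and myeloid cells (14 cells) had 3596 and 2236 CPM, where endothelial cells had 4001 and 1852 CPM. Amacrine cells (15 cells) had 289 and 91.5 CPM, the latter from 13 UMIs, after 0 and 0 in the young and adult library. Pigment epithelium (54 old cells, 2 young and 7 adult) had 759 CPM of heavy chains and 2642 CPM of B2m, the highest B2m level of any class in that library, and 3.48 B2m UMIs per heavy chain UMI (2.97 to 4.10), against 0.463 in endothelial cells.

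The classes differed in direction for H2-Q7. In the T cell and myeloid cluster it was at 383, 279.8 and 143 CPM in the young, adult and old library, from 27, 70 and 16 UMIs in 9, 29 and 14 cells, an old to young ratio of 0.373 (0.188 to 0.718), where endothelial cells had 10.8 (8.66 to 13.7). That cluster pools unlike cells, and whether their proportion differed between the libraries was not tested. For H2-Q6, Müller glia counted 7, 3 and 0 UMIs, an old to young ratio of 0 with an upper bound of 0.744. The difference between the classes was not tested, each age being 1 library.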

How the results depend on the processing

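No paired analysis was possible because each age has 1 library, and no library could be left out. Over 10 settings the old to young ratio in endothelial cells ran from 1.90 to 2.58 for H2-K1, 1.89 to 2.04 for H2-D1, 1.84 to 2.20 for H2-Q4, 5.22 to 38.0 for H2-Q6, 4.12 to 22.1 for H2-Q7, 1.72 to 2.72 for H2-T22 and 1.42 to 1.56 for H2-T23, the widest limits mostly coming from either endothelial cluster alone. B2m was at 2.298 with cells thinned to 2000 UMIs and 2.07 in the arterial-like cluster alone, where the classical chains were at 1.90. Another denominator, median-of-ratios scaling, mean CPM per cell and keeping doublets each left all 141 ratios within their intervals. Thinning moved 28 ratios out of theirs and left 94 within, and leaving out cells with 2 or more markers of another class moved 20, reversed 2 and left 62 within. With a fold of 2, 5 of the 8 genes in place of 7 passed in endothelial cells, 2 in mixed droplets, 1 in smooth muscle cells and 0 in Müller glia, rods and bipolar cells, and 2 antigen processing genes passed. A minimum of 20 UMIs gave 3 genes in rods, and one of 100 gave 1 in bipolar cells. With log2(CPM + 1), 0 of the 5 genes nearest to H2-K1 and 3 of those nearest to B2m remained. With cells holding 2 or more markers of another class left out, H2-K1 in pericytes was at 0.910 (adult to young) and B2m in rods at 0.809 (old to young). With free endothelial RNA subtracted by the summed markers, H2-K1 was at 0.525 and B2m at 0.455 in Müller glia (old to young), where Kdr alone exceeds its endothelial level. The cause of the other shifts was not tested. The single clusters and the subtraction by the median marker were chosen after seeing the data. Stricter cell limits left smooth muscle cells and cones, and leaving out cells with other markers left smooth muscle cells, Müller glia and cones, under 30 cells, with no value. Smooth muscle cells had the fewest UMIs of the 8 classes, and in the neurons single genes rest on a few UMIs.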
